A study of Drosophila melanogaster with 31 samples.

Results

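Ovaries heterozygous for either of 2 alleles of modulo (mod) were compared gene by gene, modL8/+ with mod07570/+. The members are the 6 ovary libraries of these genotypes, 3 modL8/+ and 3 mod07570/+, chosen by tissue and genotype label from the 31 samples of the series, 21 of which are RNA libraries. As the study describes them, modL8 is an amorphic allele, made by a deletion near the end of chromosome arm 3R, and mod07570 is a hypomorphic allele made by a P-element insertion. Both stocks were kept over the TM3 balancer at 25 °C, and each heterozygote carries 1 wild-type copy of mod. The source of the wild-type chromosome in each heterozygote, the backgrounds of the stocks and the age of the females are not given in the sources used here, so effects of the alleles and of the backgrounds cannot be told apart. The 3 mod07570/L8 ovary libraries, which combine the alleles, enter no test below, and their mean levels are given beside those of the heterozygotes as a description.

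Modulo is a nuclear and nucleolar protein, a homolog of mammalian Nucleolin, that binds RNA and DNA. A fly ovary is a set of ovarioles in which germline cysts grow inside an epithelium of somatic follicle cells. Late in oogenesis the follicle cells make yolk proteins and then secrete the vitelline membrane and the chorion, the layers of the eggshell, from genes that are switched on in a fixed order, some of them in amplified clusters. RNA of a whole ovary is therefore a mixture of germline and follicle cells of many stages, together with muscle of the ovarian sheath and any tissue left attached at dissection.

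The libraries held 14714186 to 18026245 estimated counts in modL8/+ and 12988959 to 16544365 in mod07570/+. Levels are given in cpm, the estimated count of a gene for each 1000000 counts of its library. These levels are not corrected for gene length, so they are compared between libraries and not between genes. Of 7929 named genes that reached 1 cpm in 3 or more of the 6 libraries, 3341 (42.1%) had an adjusted p under 0.05 (quasi-likelihood test of edgeR, Benjamini-Hochberg method), 1716 (21.6%) being higher and 1625 (20.5%) lower in modL8/+. Most of these differences were small, since 2670 of the 3341 (79.9%) were within 1.5-fold, and replicates varied by only 0.0261 (common biological coefficient of variation). The p-values weigh a difference against this spread between replicate libraries. That spread does not cover differences in background or collection between the genotypes. Over 1.5-fold, 671 genes differed (8.46%), 347 higher (4.38%) and 324 lower (4.09%). Over 2-fold, 156 genes were higher (1.97%) and 181 were lower (2.28%), 4.25% in all. The balance of directions depended on the filter, since with a filter at 5 cpm 95 genes were higher and 63 lower over 2-fold. Over 4-fold, 106 genes differed (1.34%), and here the lower genes were in the majority, with 17 higher (0.214%) and 89 lower (1.12%). The libraries of the 2 genotypes did not overlap for 4074 genes (51.4%). The median log2 fold change (modL8/+ over mod07570/+) was 0.00.

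mod itself was at 449, 458 and 462 cpm in modL8/+ against 335, 342 and 324 cpm in mod07570/+. Every modL8/+ library was above every mod07570/+ library. The log2 fold change was 0.47 ± 0.03 (standard error, SE) with an adjusted p of 9.44e-14. In mod07570/L8 ovaries mod averaged 11.3 cpm.

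Because modL8 is a deletion, the tested genes next to mod were read in their order on 3R. Only 1 tested gene, Map205, which encodes a microtubule-associated protein, lies between mod and the end of the arm, so its 16 nearest tested neighbours are 15 genes on the inner side and 1 on the outer side. In modL8/+ ovaries 3 of these 16 were higher and 8 were lower, 2 of them by over 2-fold, with a median log2 fold change of -0.13, where 21.6% of all genes were higher, 20.5% lower and 2.28% lower by over 2-fold. Map205 was at 230, 220 and 234 cpm in modL8/+ against 198, 198 and 198 cpm in mod07570/+ (log2 fold change 0.22 ± 0.03 SE, adjusted p = 1.28e-06). It was thus higher, as mod was, in every modL8/+ library. By fragments unique to 1 transcript the log2 fold change of Map205 was 0.27 and it was not called (adjusted p = 0.115). In mod07570/L8 ovaries Map205 averaged 1.67 cpm.

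On the inner side the nearest neighbour krz, which encodes the beta-arrestin Kurtz, was at 74.4, 83.0 and 82.6 cpm in modL8/+ against 127, 133 and 123 cpm in mod07570/+ (log2 fold change -0.65 ± 0.04 SE, adjusted p = 3.82e-12). CG2187, the farthest from mod of the 15 inner genes, was at 13.0, 14.0 and 13.8 cpm in modL8/+ against 59.4, 63.4 and 55.1 cpm in mod07570/+ (log2 fold change -2.10 ± 0.07 SE, adjusted p = 1.66e-18). krz and CG2187 did not stand side by side. heph, the fly polypyrimidine tract binding protein, lies between them and differed by -0.17 ± 0.03 SE on the log2 scale (adjusted p = 1.2e-05). By unique fragments heph was at -0.16 and not called (adjusted p = 0.593). Also between them, CG1971 (log2 fold change -0.86), CG2003 (-0.30), CG42233 (-0.25) and Acf (-0.13) were lower. betaGlu (0.19, not called by unique fragments) and FeCH (0.18) were higher, and faf, Mccc1, sip3, CG2126 and Rift were not called. Of the 16 neighbours, 4 were lower by over 1.5-fold, against 4.09% of all genes.

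**Figure D1:**
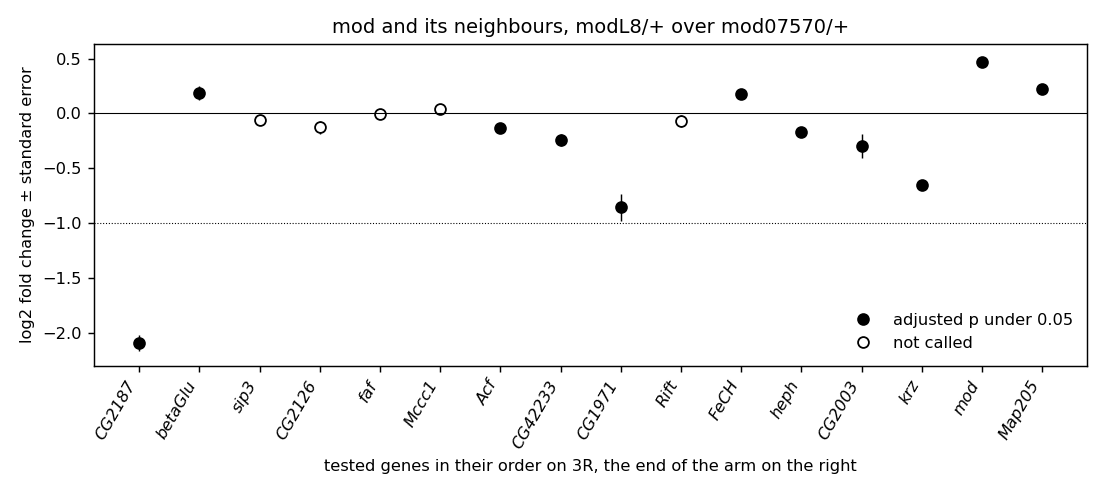
Log2 fold change, modL8/+ over mod07570/+, of mod and of 15 of its 16 nearest tested neighbours in their order on chromosome arm 3R, with bars of 1 standard error. The dotted line marks a halving (-1), which CG2187 (-2.10) passes and which no run of the adjacent genes drawn follows.

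The eggshell genes tested differed in the same direction. All 9 chorion genes tested were higher in modL8/+, 7 of them by over 2-fold, with a median log2 fold change of 1.22 (range 0.87 to 1.87), against 21.6% of all genes higher and a median of 0.00. All 12 genes for vitelline membrane and related eggshell proteins, yolk proteins and the yolk receptor were higher too, 6 of them by over 2-fold, with a median of 0.98 (range 0.13 to 1.29). In all 21 genes the libraries of the 2 genotypes did not overlap, as in 51.4% of all genes tested. Summed over the list, chorion transcripts were at 5510 to 5716 cpm in modL8/+ against 2371 to 2403 cpm in mod07570/+. In RNA of whole ovaries, more cells of a type and more RNA per cell cannot be told apart, and the share of egg chambers of each stage was not measured.

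Cp15, a chorion protein gene of the amplified cluster on 3L, was at 1242, 1243 and 1169 cpm in modL8/+ against 331, 332 and 353 cpm in mod07570/+ (log2 fold change 1.87 ± 0.03 SE, adjusted p = 7.47e-26). The other 3 chorion genes of that cluster, which are made late in eggshell formation, followed with log2 fold changes of 1.72 for Cp16, 1.61 for Cp19 and 1.38 for Cp18. The amplified X-linked cluster differed less: Cp38 was at 1743, 1743 and 1672 cpm in modL8/+ against 869, 849 and 823 cpm in mod07570/+ (log2 fold change 1.04 ± 0.02 SE, adjusted p = 8.85e-22). Cp7Fc, Cp7Fa, Cp36 and Cp7Fb had log2 fold changes of 1.22, 1.21, 0.98 and 0.87. The 4 genes on 3L thus had higher log2 fold changes than each of the 5 chorion genes on X, a difference between the clusters that was not tested.

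Among the vitelline membrane genes, Vm34Ca was at 1022, 972 and 985 cpm in modL8/+ against 412, 431 and 448 cpm in mod07570/+ (log2 fold change 1.23 ± 0.03 SE, adjusted p = 3.86e-22). The vitelline membrane gene Vm32E had a log2 fold change of 1.25, and dec, which encodes the eggshell protein Defective chorion, one of 0.96. Of the yolk protein genes, Yp1 was at 1608, 1603 and 1601 cpm in modL8/+ against 763, 781 and 767 cpm in mod07570/+ (log2 fold change 1.08 ± 0.02 SE, adjusted p = 3.28e-23), while Yp2 had a log2 fold change of 0.79 and Yp3 of 0.54. The 2 genotypes were closest for yl, the yolk protein receptor made by the germline, at 0.13. The antisense RNA asRNA:CR45601, listed next to Yp1, had a log2 fold change of 1.12, but the labels do not say that the libraries kept strand, so its reads and those of Yp1 cannot be told apart.

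**Figure D2:**
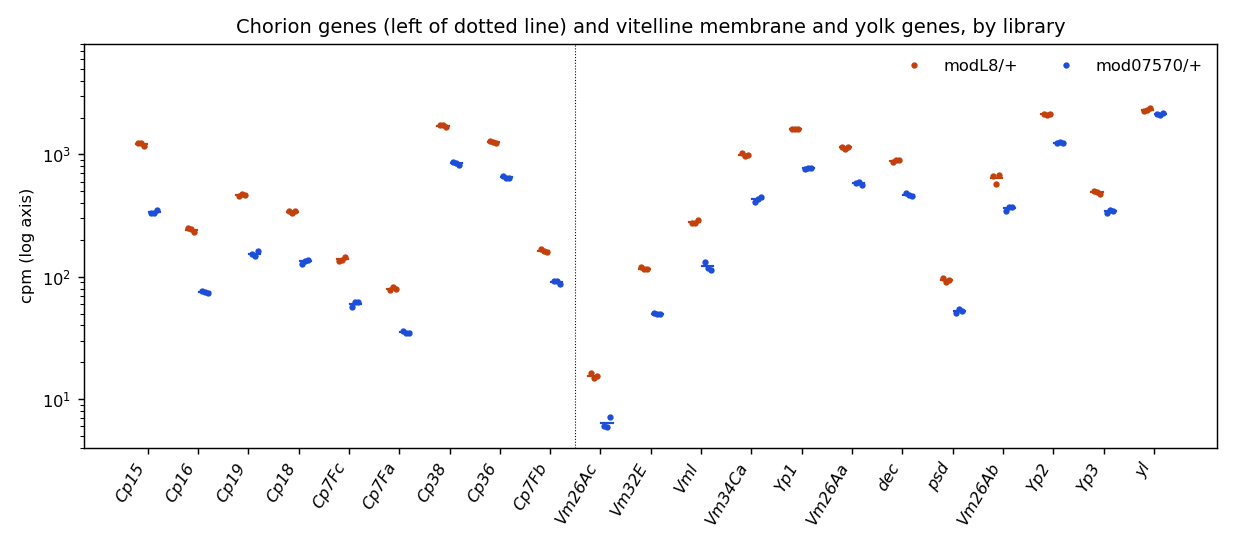
Level in cpm (log axis) of the 9 chorion genes (left of the dotted line) and the 12 vitelline membrane, yolk protein and yolk receptor genes. Each point is 1 library and each bar the mean of 3, modL8/+ in orange and mod07570/+ in blue. In every gene all 3 modL8/+ points lie above all 3 mod07570/+ points, widest apart for Cp15 (1169 to 1243 against 331 to 353 cpm).

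Markers of the ovary's own cell types moved less. Of 10 follicle cell markers 7 were higher in modL8/+ and none was lower (70% called, against 42.1% of all genes). However, 4 of the 10 are eggshell or yolk genes counted above. Of the other 6, tj, Fas3 and br were higher and eya, mirr and slbo were not called (50% called), with a median log2 fold change of 0.38. tj, a transcription factor gene of somatic gonad cells, was at 54.2, 56.2 and 56.6 cpm in modL8/+ against 41.0, 43.9 and 37.6 cpm in mod07570/+ (log2 fold change 0.47 ± 0.06 SE, adjusted p = 2.19e-07). Of 8 germline markers tested, 3 were higher and 1 was lower (50% called, near the 42.1% of all genes). All 8 were within a log2 fold change of -0.11 to 0.16. osk, whose RNA is stored in the oocyte for the posterior pole, had a log2 fold change of 0.08, and bcd, the anterior determinant, one of -0.11. In mod07570/L8 ovaries the chorion list summed to 15994 to 16065 cpm, above both heterozygotes.

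**Figure D3:**
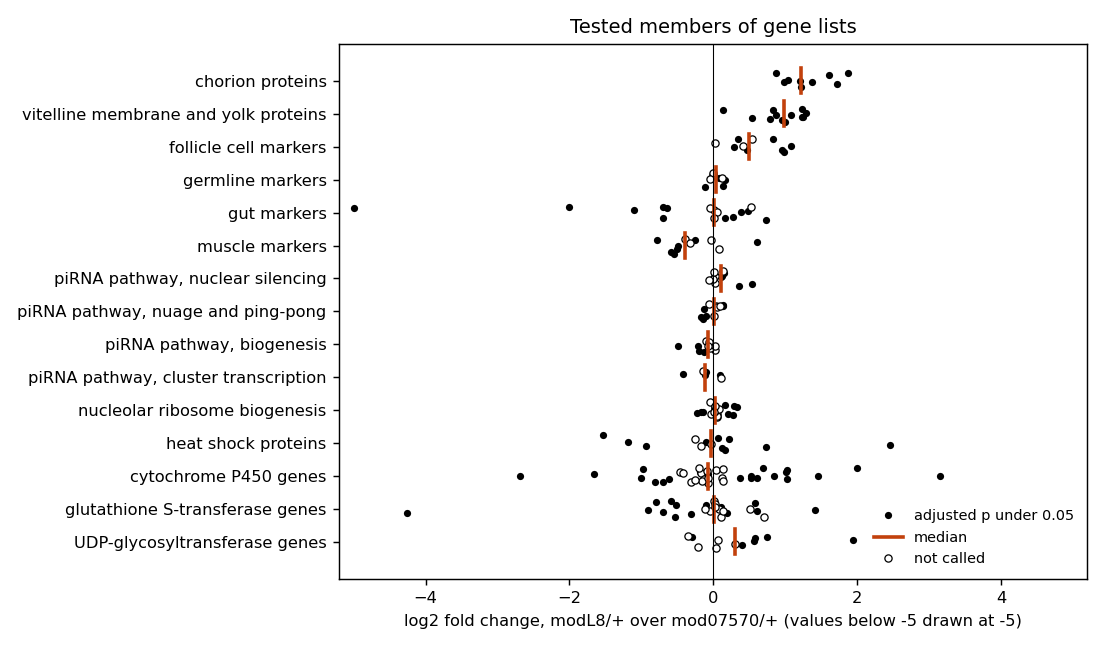
Log2 fold change, modL8/+ over mod07570/+, of the tested members of 15 gene lists, 1 point a gene, filled where the adjusted p was under 0.05, with the list's median as an orange bar. The chorion (median 1.22) and the vitelline membrane and yolk genes (0.98) lie to the right of 0, and gut, cytochrome P450 and glutathione S-transferase genes spread to both sides of it.

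At the other end, a set of genes was almost without reads in modL8/+ and present in mod07570/+. Of 181 genes lower by over 2-fold, 66 (36.5%) averaged under 0.2 cpm in mod07570/L8, as 1 of the 156 genes higher by over 2-fold did (0.641%) and 110 of all 7929 tested (1.39%). Leaving out genes under 1 cpm in mod07570/L8, a count added after the data were seen, 87 genes were lower by over 2-fold and 151 were higher. Histone copies aside, 26 genes had at most 3 estimated counts in each modL8/+ library and at least 1 cpm in each mod07570/+ library, and 4 genes had the opposite pattern. All of these passed the filter on low counts only through the genotype in which they were present, so their numbers depend on that filter. Of the 26, 21 were under 0.2 cpm in mod07570/L8 and 3 were at 1 cpm or more.

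The 12 lowest genes with at least 5 cpm fall into these kinds. In 8 of them (CG7953, LManVI, CG7916, LManV, CG8997, LysD, CG10472 and CG8834) the mean in mod07570/L8 was under 0.2 cpm. LManV and LManVI are lysosomal alpha-mannosidase genes that lie side by side on 2L, and LysD is a lysozyme gene of the digestive tract. LManVI was at 0, 0.0555 and 0 cpm in modL8/+, which is 1 count in all, against 10.3, 11.6 and 11.1 cpm in mod07570/+. That is a ratio of 0.00184 (95% Clopper-Pearson interval of counting error 4.64e-05 to 0.0103). LysD was at 0.476, 0.333 and 0.285 cpm in modL8/+ against 15.3, 14.4 and 17.7 cpm in mod07570/+ (log2 fold change -5.38 ± 0.22 SE, adjusted p = 1.13e-16). Because eXpress divides reads between similar lysozyme genes, the sum of LysB, LysD and LysE was also taken, and it was at 0.748, 1.05 and 1.21 cpm in modL8/+ against 19.3, 19.7 and 22.5 cpm in mod07570/+.

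The other 4 of the 12 lowest genes were well expressed in mod07570/L8. p24-2, a member of the p24 family of vesicle cargo receptors, had no count in any modL8/+ library against 13.7, 11.8 and 14.8 cpm in mod07570/+, and was at least 220-fold lower in modL8/+ when 3 counts over the group are taken as the floor. Its neighbour on 3R, Unc-115b, related to actin-binding LIM proteins, was at 0.215, 0 and 0 cpm in modL8/+ against 15.5, 22.1 and 19.4 cpm in mod07570/+. That is 3 counts against 886, a ratio of 0.00316 (95% Clopper-Pearson interval 0.00065 to 0.00926). In mod07570/L8 ovaries p24-2 averaged 33.4 cpm and Unc-115b 55.9 cpm. Their paralogs p24-1 (log2 fold change 0.01, adjusted p = 0.896) and Unc-115a (-0.04, adjusted p = 0.84) were not called.

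CG32318, which lies on 3L, was at 0.291, 0.138 and 0.140 cpm in modL8/+ against 18.9, 14.5 and 17.6 cpm in mod07570/+ (log2 fold change -6.61 ± 0.26 SE, adjusted p = 4.57e-17). CG8799, an ABC transporter gene on 2R, was at 0.612, 0.333 and 0.242 cpm in modL8/+ against 19.2, 20.1 and 21.6 cpm in mod07570/+ (log2 fold change -5.67 ± 0.20 SE, adjusted p = 5.13e-18). For both, the highest modL8/+ library was far under the lowest mod07570/+ library, but a lack of overlap was a condition for naming them.

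**Figure D4:**
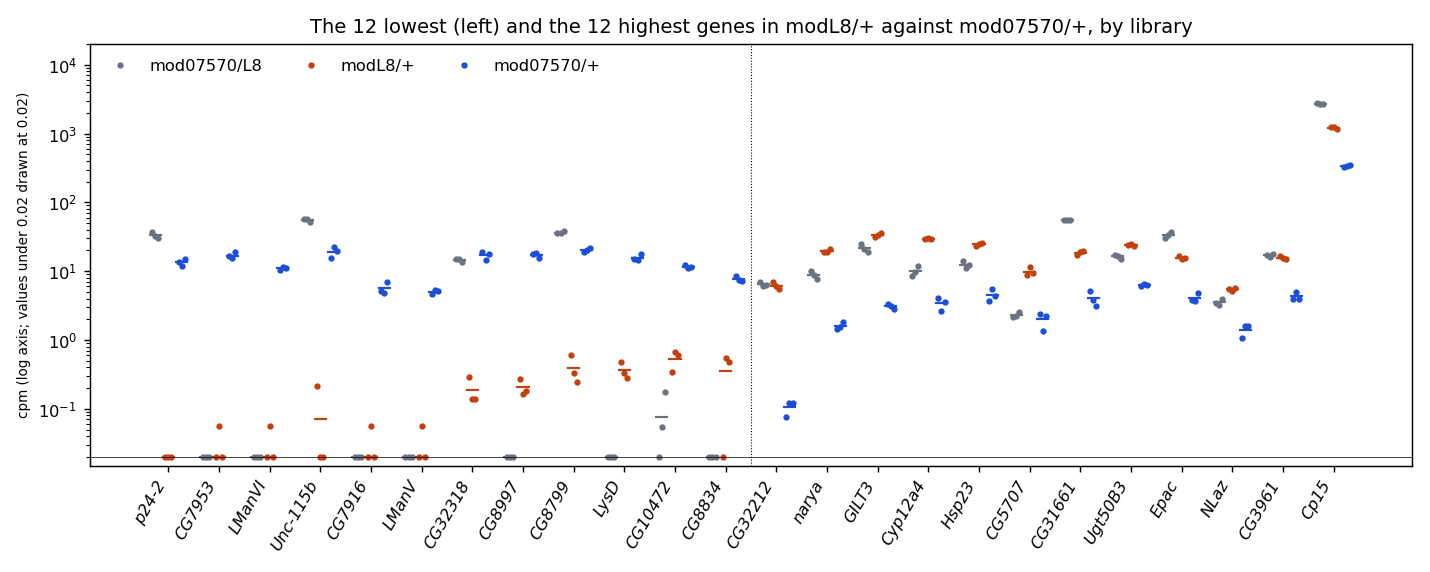
Level in cpm (log axis, values under 0.02 drawn at 0.02) of the 12 lowest and the 12 highest genes in modL8/+ against mod07570/+, each point 1 library and each bar the mean of 3 libraries of mod07570/L8 (grey), modL8/+ (orange) or mod07570/+ (blue). Of the 12 lowest genes, 8 are also near 0 in mod07570/L8, while the 12 highest are all at 1 cpm or more there.

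Of the 12 highest genes, none was fully absent from mod07570/+. CG32212 on 3L was at 6.86, 5.99 and 5.44 cpm in modL8/+ against 0.077, 0.122 and 0.121 cpm in mod07570/+ (log2 fold change 5.73 ± 0.35 SE, adjusted p = 6.87e-13). narya, a gene of meiotic crossing over on X, was at 18.8, 18.9 and 20.9 cpm in modL8/+ against 1.46, 1.52 and 1.81 cpm in mod07570/+ (log2 fold change 3.62 ± 0.15 SE, adjusted p = 9.86e-17). Its relative nenya, which acts with it in meiosis, was not called (log2 fold change 0.14, adjusted p = 0.516).

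GILT3, which encodes a thiol reductase of the GILT family, was at 31.1, 33.1 and 35.9 cpm in modL8/+ against 3.39, 3.11 and 2.78 cpm in mod07570/+ (log2 fold change 3.46 ± 0.11 SE, adjusted p = 7.62e-19). Its family member GILT1 differed in the other direction by a log2 fold change of -0.16 (adjusted p = 4.12e-05), and GILT2 was not called (0.17, adjusted p = 0.0586). The rest of the 12 were Cyp12a4, Hsp23, CG5707, CG31661, Ugt50B3, Epac (an exchange factor for Rap GTPases that responds to cyclic AMP), NLaz (a lipocalin), CG3961 and Cp15, with log2 fold changes of 1.87 to 3.15. The 4 genes nearly absent from mod07570/+ were CG32212, CG44153, TpnC4 and Fmo-1, of which all but CG32212 averaged under 2 cpm in modL8/+.

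Because digestive genes were among the lowest, a list of 17 gut markers was read as a whole. LManV, named above among the lowest genes, is a member of the list. The list was also chosen with earlier results of these data known, so it is not independent of those genes. The list summed to 315 to 329 cpm in modL8/+, 356 to 360 cpm in mod07570/+ and 0.17 to 0.436 cpm in mod07570/L8. Transcripts of digestive enzymes were thus present in the ovary libraries of both heterozygotes. Of 16 members tested, 5 were higher and 6 were lower in modL8/+ (68.8% called, against 42.1% of all genes), with a median log2 fold change of 0.01. What part gut RNA had in the differences between the heterozygotes was not tested.

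The gut members did not move together. Jon25Biii, a serine protease gene of the digestive tract, was at 5.10, 3.83 and 4.72 cpm in modL8/+ against 16.6, 20.4 and 18.2 cpm in mod07570/+ (log2 fold change -2.01 ± 0.13 SE, adjusted p = 1.49e-12). Amy-p, an amylase gene, was at 39.9, 41.5 and 40.2 cpm in modL8/+ against 67.4, 63.3 and 63.0 cpm in mod07570/+ (log2 fold change -0.65 ± 0.05 SE, adjusted p = 1.03e-10). The maltase gene Mal-A1 had a log2 fold change of -0.70.

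The protease gene Jon25Bi went the other way, at 9.18, 8.82 and 10.2 cpm in modL8/+ against 4.62, 6.52 and 5.86 cpm in mod07570/+ (log2 fold change 0.74 ± 0.15 SE, adjusted p = 2.2e-04). The protease gene Jon99Cii was higher as well, with a log2 fold change of 0.38 (± 0.06 SE, adjusted p = 1.03e-05). alphaTry, a trypsin gene, was at 35.5, 34.6 and 35.3 cpm in modL8/+ against 38.7, 35.6 and 36.1 cpm in mod07570/+ (log2 fold change -0.04 ± 0.06 SE, adjusted p = 0.598). Neighbouring digestive protease genes outside the list, Jon99Fi (-2.46) and Jon99Fii (-2.37), were lower. They were named after their values were seen.

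**Figure D5:**
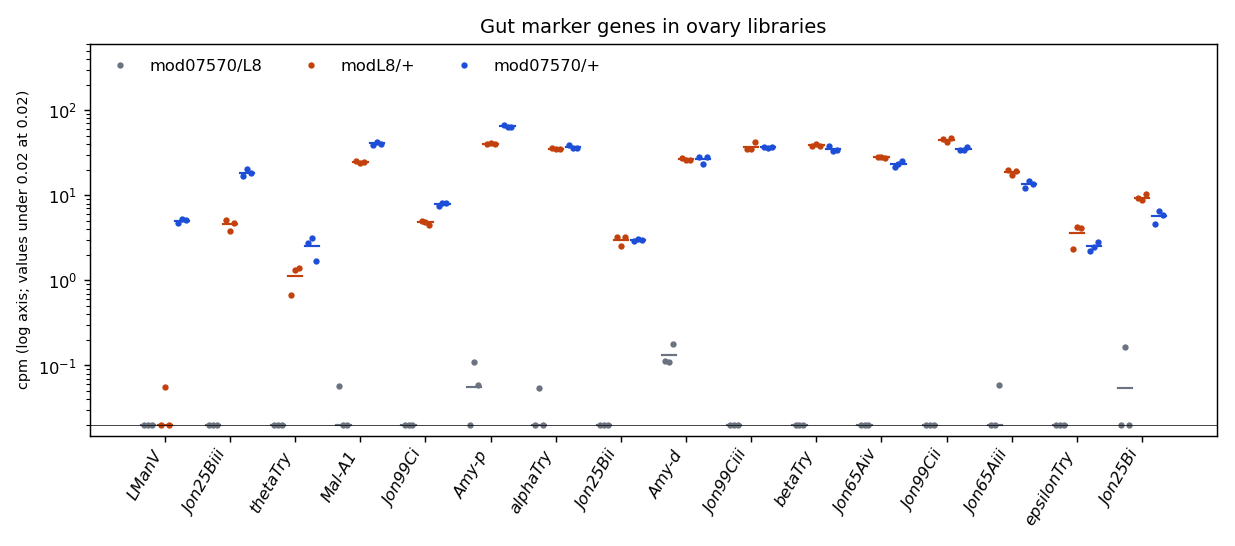
Level in cpm (log axis, values under 0.02 drawn at 0.02) of the 16 gut markers tested, from the lowest to the highest log2 fold change, each point 1 library and each bar the mean of 3 libraries of mod07570/L8 (grey), modL8/+ (orange) or mod07570/+ (blue). In modL8/+ LManV is near 0 and 3 of the 16 (LManV, Jon25Biii and thetaTry) are lower by over 2-fold, and the mod07570/L8 points lie at or near the bottom for all 16.

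Of 3 antimicrobial and immune genes that passed the filter, of a list of 24, PGRP-SC2 was called (33.3%, against 42.1% of all genes). PGRP-SC2, an amidase gene that degrades bacterial peptidoglycan in the gut, was lower with a log2 fold change of -1.67 (± 0.17 SE, adjusted p = 1.4e-08). Its neighbours PGRP-SC1a and PGRP-SC1b, outside the 3 and named after their values were seen, summed to 1.29, 1.44 and 2.42 cpm in modL8/+ against 10.3, 10.4 and 10.2 cpm in mod07570/+.

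Markers of other tissues that can stay attached to an ovary were read in the same way. Of 11 muscle markers tested 6 were lower and 1 was higher in modL8/+ (63.6% called, against 42.1% of all genes), the list of 14 summing to 113 to 123 cpm in modL8/+ against 149 to 152 cpm in mod07570/+. Mhc, the muscle myosin heavy chain, had a log2 fold change of -0.59 (± 0.08 SE, adjusted p = 1.08e-06). The 3 hemocyte and basement membrane markers tested (Ppn, vkg and Col4a1) were lower, against 20.5% of all genes. Their list of 6 summed to 115 to 116 cpm in modL8/+ against 145 to 162 cpm in mod07570/+. In mod07570/L8 the muscle list summed to 316 to 323 cpm and the hemocyte list to 299 to 307 cpm, above both heterozygotes. Which cells of the samples made these transcripts was not tested. Hml, NimC1 and He of that list did not pass the filter. apolpp, a lipoprotein precursor of the fat body and the 1 fat body marker tested of 7, was higher (log2 fold change 0.85, adjusted p = 6.46e-07). None of the 10 testis markers passed the filter on low counts, neither of the 2 neuron markers tested was called, and Hr39, the 1 spermatheca marker tested, was not called.

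Among genes with at least 200 cpm, the widest difference was that of Unr. Unr, an RNA-binding protein gene best known for the repression of msl-2 in females, was at 146, 147 and 154 cpm in modL8/+ against 614, 618 and 615 cpm in mod07570/+ (log2 fold change -2.03 ± 0.03 SE, adjusted p = 1.2e-26). Every modL8/+ library was thus under every mod07570/+ library by a wide margin. In gene order Unr lies on 3L in the same run of 50 tested genes as the chorion cluster, whose 4 genes were higher. In mod07570/L8 ovaries it averaged 456 cpm.

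Gabat, the GABA transaminase gene, was at 160, 158 and 148 cpm in modL8/+ against 332, 324 and 323 cpm in mod07570/+ (log2 fold change -1.05 ± 0.03 SE, adjusted p = 1.05e-19). That value rests on how eXpress divided shared fragments, since with fragments unique to 1 transcript it was 0.67 and not called (adjusted p = 0.538).

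Genes for ribosomal proteins, the most abundant list, were shifted slightly upward. Of 87 tested, 67 were higher and 3 were lower in modL8/+, against 21.6% higher and 20.5% lower of all genes, with a median log2 fold change of 0.11, and the list took 9.99% to 10.2% of the counts of a library in modL8/+ against 9.34% to 9.56% in mod07570/+. Within 1.5-fold were 64 of the 67 higher genes. RpS2 was at 1940, 2024 and 1998 cpm in modL8/+ against 1270, 1260 and 1226 cpm in mod07570/+ (log2 fold change 0.69 ± 0.02 SE, adjusted p = 1.2e-18), and RpLP0 and sta had log2 fold changes of 0.65 and 0.59. RpS10a, a paralog of RpS10b that is expressed mostly in testis, was at 0.136, 0 and 0 cpm in modL8/+ against 2.00, 1.46 and 1.15 cpm in mod07570/+. Without the reads shared between isoforms or copies, by unique counts, 26 of the list were higher.

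Genes for making ribosomes in the nucleolus, where Modulo resides, differed little. Of 19 tested, 5 were higher and 3 were lower, 42.1% of the list as of all genes, and none by over 1.5-fold. Surf6, a nucleolar protein gene of ribosome assembly, had a log2 fold change of 0.34 (± 0.04 SE, adjusted p = 7.7e-08), and Fib, which encodes the methyltransferase Fibrillarin, one of -0.23 (± 0.03 SE, adjusted p = 5.8e-06).

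The piRNA pathway, with which the study is concerned, silences transposons through small RNAs bound to Piwi proteins. Of 39 pathway genes tested, 8 were higher and 11 were lower in modL8/+, none by over 1.5-fold, and the median log2 fold change was 0.00. That is 48.7% called, against 42.1% of all genes. The 5 called genes of nuclear silencing, of 11 tested (45.5%), were all higher. The other 6 were not called, among them piwi (log2 fold change 0.02), Panx, which encodes Panoramix (0.02), and egg (0.01). nxf2, a partner of Panoramix in transcriptional silencing, was at 104, 106 and 92.6 cpm in modL8/+ against 68.8, 74.8 and 69.0 cpm in mod07570/+ (log2 fold change 0.53 ± 0.05 SE, adjusted p = 2.57e-09), and Su(var)3-9, a histone H3K9 methyltransferase gene, had a log2 fold change of 0.35.

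The 4 called genes of piRNA biogenesis, of 11 tested (36.4%, against 42.1% of all genes), were all lower, and 2 were when modL8/+ replicate 3 or mod07570/+ replicate 1 was left out. zuc, the nuclease that cuts piRNA precursors, was at 16.6, 16.4 and 15.6 cpm in modL8/+ against 22.9, 22.3 and 24.5 cpm in mod07570/+ (log2 fold change -0.50 ± 0.08 SE, adjusted p = 2e-05). Of 6 genes for the transcription of piRNA clusters 1 was higher (none without mod07570/+ replicate 3) and 3 were lower (66.7% called). rhi, a heterochromatin protein that marks the clusters, was at 34.2, 31.4 and 36.4 cpm in modL8/+ against 45.0, 45.3 and 48.8 cpm in mod07570/+ (log2 fold change -0.43 ± 0.06 SE, adjusted p = 3.48e-06). Of 11 genes of nuage and the ping-pong cycle 2 were higher (1 without modL8/+ replicate 3 or mod07570/+ replicate 1) and 4 were lower. That is 54.5% called, against 42.1% of all genes, and aub and AGO3 were not called.

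Heat shock genes did not move as a group. Of 13 tested, 6 were higher and 4 were lower (76.9% called, against 42.1% of all genes), with a median log2 fold change of -0.03. Without mod07570/+ replicate 2, 2 were lower. The small heat shock gene Hsp23 was at 23.2, 24.7 and 25.8 cpm in modL8/+ against 3.70, 5.54 and 4.29 cpm in mod07570/+ (log2 fold change 2.45 ± 0.12 SE, adjusted p = 4.39e-15). The inducible chaperone genes Hsp70Aa and Hsp70Ab, near-identical copies, summed to 15.2, 13.3 and 16.8 cpm in modL8/+ against 33.3, 28.8 and 33.0 cpm in mod07570/+. Hsp23 was thus higher and the Hsp70 copies lower in modL8/+, while Hsp83, the fly Hsp90, differed by 0.22 on the log2 scale.

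Detoxification genes differed in both directions. Of 37 cytochrome P450 genes tested, 12 were higher and 10 were lower (59.5% called, against 42.1% of all genes), 6 and 2 of them by over 2-fold. The number lower was 6 without modL8/+ replicate 3, and 6 and 5 without mod07570/+ replicates 1 and 2. Cyp12a4, a mitochondrial P450, was at 29.2, 30.5 and 29.4 cpm in modL8/+ against 4.08, 2.62 and 3.57 cpm in mod07570/+ (log2 fold change 3.15 ± 0.12 SE, adjusted p = 1.36e-17), while its neighbour Cyp12a5 was not called. Cyp9b2 was at 1.5, 1.77 and 1.27 cpm in modL8/+ against 9.39, 10.1 and 10.4 cpm in mod07570/+ (log2 fold change -2.69 ± 0.18 SE, adjusted p = 5.56e-12). The abundant Cyp6a19 was at 585, 575 and 586 cpm in modL8/+ against 361, 368 and 368 cpm in mod07570/+, a log2 fold change of 0.69.

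Of 24 glutathione S-transferase genes tested, 5 were higher and 9 were lower (58.3% called, against 42.1% of all genes), with 3 higher without modL8/+ replicate 3. Of the 11 GstE genes, most of which lie in a cluster on 2R, 7 were lower and 1 was higher (72.7% called), with a median log2 fold change of -0.52. GstE10 was at 0.136, 0.555 and 0.181 cpm in modL8/+ against 6.24, 5.48 and 6.47 cpm in mod07570/+ (log2 fold change -4.26 ± 0.32 SE, adjusted p = 3e-11). GstD3 was at 20.5, 17.3 and 17.0 cpm in modL8/+ against 6.70, 7.43 and 6.71 cpm in mod07570/+ (log2 fold change 1.41 ± 0.11 SE, adjusted p = 1.52e-10). Of 11 UDP-glycosyltransferase genes 5 were higher and 1 was lower (54.5% called), led by Ugt50B3 (log2 fold change 1.95).

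Of 4 visible marker genes of fly stocks that passed the filter, ry and w were lower (50% called, against 42.1% of all genes). When any single mod07570/+ library was left out, ry missed the filter on low counts, and 1 was lower. ry, the xanthine dehydrogenase gene that some P-element constructs carry as an eye color marker, was at 0, 0.222 and 0.302 cpm in modL8/+ against 3.54, 2.62 and 1.69 cpm in mod07570/+ (log2 fold change -3.74 ± 0.47 SE, adjusted p = 3.72e-07). w, the eye pigment transporter gene used in the same way, was at 5.64, 4.88 and 4.90 cpm in modL8/+ against 8.08, 9.5 and 9.31 cpm in mod07570/+ (log2 fold change -0.79 ± 0.15 SE, adjusted p = 8.61e-05). In mod07570/L8 ovaries ry averaged 7.4 cpm and w 17.9 cpm. The eye color genes p and bw were not called.

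The differences over 2-fold were not gathered on 1 chromosome arm. The differences over 2-fold made up 4.52% of the tested genes on X, 4.64% on 2L, 3.8% on 2R, 3.87% on 3L and 4.37% on 3R, where mod lies, against 4.25% of all genes, and 4 of the 65 genes tested on chromosome 4. Cut into 155 runs of 50 tested genes, the arms had a median of 2 such genes a run and at most 6, a number reached by 7 runs, while 21 runs had none. In the run at the start of 2R, next to the centromere, all 6 were higher in modL8/+: CG40498, l(2)41Ab, CG41520, Scp1, Ugt50B3 and TpnC4. In 1 run of 2L all 6 were lower, among them LManV and LManVI.

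Adjacent tested genes that differed by over 2-fold in the same direction formed 36 stretches with 86 genes, 18 higher and 18 lower, of which 5 had at least 4 genes. The genes below are named after their values were seen. Higher stretches were the chorion cluster on 3L, NLaz with CG31928, CG31926 and CG31661 on 2L, and CG32642, Mur11Da, asRNA:CR43636 and CG15721 on X, and the eggshell gene Femcoat and its neighbour Muc4B formed a pair. The lower stretches of at least 4 genes were LManV, LManVI, Tsp29Fa, Tsp29Fb and Argl, and CG33306, CG8997, CG7916 and CG7953, both on 2L. CG15721 was at 127, 126 and 132 cpm in modL8/+ against 41.0, 43.5 and 38.7 cpm in mod07570/+ (log2 fold change 1.66 ± 0.05 SE, adjusted p = 3.13e-20). Unc-115b and p24-2 were a lower pair.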

How the data were processed

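The members and the gene lists were chosen with earlier results of these data known. Total RNA was extracted from ovaries with Trizol, and poly(A) libraries were made with the NEBNext Ultra kit. Reads were aligned by the authors with Bowtie 2 to the transcripts of RefSeq genes and to transposon consensus sequences, and eXpress estimated their abundance (versions not given in the sources used here). The deposited estimated counts and effective counts (expected counts, not whole) come from the authors' eXpress run, which divides fragments that map to several sequences. The deposited unique counts are whole counts of fragments mapping to 1 sequence.

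Of 34437 RefSeq transcripts, 34035 were matched by accession to a gene symbol of the Release 6 annotation, used for names and gene order only, and were summed per gene. The rest stayed single features (at most 0.19% of the counts of a heterozygote library; 63 tested, 26 called). Estimated counts were rounded and tested with edgeR 4.0.16 (quasi-likelihood test, TMM, at least 1 cpm in 3 libraries, 8052 features including 60 transposons) in R 4.3.3, with Benjamini-Hochberg adjustment over all features and a threshold of 0.05. The test was tried on simulated counts. Replicates are biological per the study's methods. In estimated counts, all 6 pairs of replicates differed by more than sampling noise (chi-square per degree of freedom 1.97 to 2.6). The part that dividing shared fragments had in this excess was not measured, so it does not show how the replicates were made.

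Named were mod, the 12 highest and 12 lowest genes with at least 5 cpm in the higher group and no overlap, the 10 widest differences at 200 cpm or more, the 15 tested genes on each side of mod, list members and genes of the runs of 50 with most 2-fold calls. The values of 1 neighbour of mod are not reported here. The cyclophilins that the name pattern for P450 genes first took in were removed. Other counts, scalings, filters and fits, DESeq2 1.42.0 and each library left out were the alternatives. Tables and figures used Python 3.11.15, pandas 2.3.3, numpy 2.4.6, scipy 1.17.1 and matplotlib 3.10.9. Intervals cover counting error only.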

Additional observations from a re-analysis of the deposited data

How the results depend on the processing

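Over the alternatives, the 33 genes named for extreme or abundant differences kept their direction and call in 480 of 481 values obtained. The exception was Gabat with unique counts, where the log2 fold change was 0.67. Several of the 33, such as CG7953 and CG32212, gave no value without a library of their higher genotype, since they then missed the filter. Those omissions therefore could not test them. Among the neighbours of mod, Mccc1 was -0.52 with unique counts, and faf, not called, was 0.0021 with effective counts and between -0.0235 and 0.00351 with single libraries left out. Unique counts gave 670 genes higher and 679 lower, 26 ribosomal protein genes higher and 5 neighbours of mod lower. A test against 1.5-fold gave 163 higher, 174 lower, 2 ribosomal protein genes higher and 2 neighbours lower. Over 2-fold, 95 genes were higher and 63 lower with at least 5 cpm, and 310 were lower with no filter. Genes at 1 cpm or more in mod07570/L8, chosen after the data were seen, gave 87. Without each mod07570/+ library (replicates 1, 2 and 3) 91, 87 and 93 were lower over 2-fold, since genes absent from modL8/+ then lacked the 3 libraries the filter asks for, and with all single omissions the range was 87 to 189. Summing histone copies per class, also chosen later, gave 154 higher and 178 lower over 2-fold. Of 72 such copies, whose reads cannot be told apart, 41 were lower and 2 higher.

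All 9 chorion genes stayed higher under every alternative. With total-count scaling 1459 genes were higher and 1961 lower. Same-numbered libraries did not deviate together (correlations -0.00858, 0.0179 and 0.006), so the numbers do not pair the samples. A fit with the replicate number as a block called 1614 higher and 1519 lower. Genes near 1 cpm rest on about 13 to 18 counts a library.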
